A study of Rattus norvegicus with 6 samples.

Results

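Oxidative phosphorylation genes were examined in primary chondrocytes, the cells of cartilage, with and without retinoic acid. Members were picked by symbol: the Nduf, Sdh, Uqcr, Cox4 to Cox8 and Atp5 families of the nuclear genome, and the protein genes of mitochondrial DNA. The rule used names alone and no measured value. It found 98 of the 18923 gene identifiers in the files, of which 85 are nuclear (82 symbols, since Cox6b1, Ndufv3 and Uqcrb each have a pair of identifiers) and 13 are mitochondrially encoded. The CON group held 3 samples of wild-type chondrocytes from newborn female Sprague-Dawley rats, grown in high-glucose DMEM with fetal bovine serum. The RA group held 3 samples of the same cells that had received 1 µM all-trans retinoic acid, a vitamin A derivative, for 24 h. Poly(A) RNA was sequenced, and reads were counted per gene. The cells were in early passages, and the study's methods call the 3 samples of a group independent, while the labels do not tie them to separate animals or cultures, so that the p-values measure the spread between these samples. The 10 chondrocyte markers checked, among them Col2a1, the main cartilage collagen, were all present and all 10 fell with RA (median log2 fold change −0.90), where 4.5% of all genes tested fell.

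Oxidative phosphorylation is carried out by 5 complexes in the inner mitochondrial membrane. Complexes I (the Nduf and Mt-nd proteins) and II (the Sdh proteins) take electrons from NADH and succinate, complex III (Uqcr proteins and Mt-cyb) passes them to cytochrome c, and complex IV (Cox and Mt-co proteins) hands them to oxygen. Complex V, the ATP synthase (Atp5 and Mt-atp proteins), uses the resulting proton gradient to make ATP. Most subunits are encoded in the nucleus and imported, whereas a small core of complexes I, III, IV and V is encoded by mitochondrial DNA and transcribed there as long precursor RNAs. Cartilage is poorly supplied with oxygen, and chondrocytes are known for drawing much of their ATP from glycolysis.

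The promoters of the nuclear members were read from RefSeq (assembly GRCr8), as the 250 bases before each gene's start. Of the 82 nuclear symbols, 72 were matched. NRF-1 and the ETS factor GABP are known as regulators of nuclear genes for respiratory subunits. The NRF-1 letters, GCGC on either side of A and any base, stood in 11 of the 72 promoters (15.3%) and in 4.17% of all 27457 promoters of the same length. The ETS letters CCGGAAG stood in 19 of 72 (26.4%) and in 7.74% of all. The YY1 letters AAGATGGC were found in 2 of 72 (2.78%, against 1.69%), CCAAT in 23 (31.9%, against 34.3%) and TATAAA in 8 (11.1%, against 13.1%). Both strands were searched, and none of these motifs contains another. The DR5 retinoic acid response element was found in 0 of the 72 windows and in 0.324% of all, which says only that its letters are not in these windows. These matches are descriptions and not measured binding sites. The GC content of the 72 windows had a median of 55.4%, against 52% for all promoters. The promoters below are those of the pair of nuclear members that passed the test in this comparison, Ndufa13 and Cox6a2, and of Sdha and Atp5me, which carry a pair of NRF-1 matches and all of NRF-1, ETS and YY1 respectively. Capitals mark NRF-1, ETS and YY1 matches on either strand.
Ndufa13 promoter, chr16:19560276-19560525, + strand: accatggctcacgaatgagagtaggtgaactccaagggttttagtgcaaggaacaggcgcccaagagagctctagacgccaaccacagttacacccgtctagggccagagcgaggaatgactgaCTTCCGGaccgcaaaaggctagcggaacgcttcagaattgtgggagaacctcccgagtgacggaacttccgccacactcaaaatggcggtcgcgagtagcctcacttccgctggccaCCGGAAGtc
Cox6a2 promoter, chr1:192219717-192219966, - strand: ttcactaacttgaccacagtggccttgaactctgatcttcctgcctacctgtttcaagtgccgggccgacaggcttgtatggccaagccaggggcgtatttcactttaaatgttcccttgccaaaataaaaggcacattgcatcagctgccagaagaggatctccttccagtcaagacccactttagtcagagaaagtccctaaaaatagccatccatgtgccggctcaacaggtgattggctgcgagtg
Sdha promoter, chr1:30764303-30764552, + strand: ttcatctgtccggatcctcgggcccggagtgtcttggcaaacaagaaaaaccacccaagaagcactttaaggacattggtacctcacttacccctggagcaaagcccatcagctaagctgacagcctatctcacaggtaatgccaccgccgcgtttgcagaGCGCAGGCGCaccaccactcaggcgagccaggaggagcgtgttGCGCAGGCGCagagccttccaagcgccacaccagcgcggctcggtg
Atp5me promoter, chr14:1464610-1464859, + strand: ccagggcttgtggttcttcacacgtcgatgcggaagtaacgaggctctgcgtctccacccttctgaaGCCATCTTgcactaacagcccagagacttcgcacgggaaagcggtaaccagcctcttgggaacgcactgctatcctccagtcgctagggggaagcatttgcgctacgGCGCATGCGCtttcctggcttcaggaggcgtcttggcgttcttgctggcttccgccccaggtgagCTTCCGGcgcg
The Ndufa13 window held a pair of ETS matches and the Cox6a2 window held none of the marked motifs.

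Before the comparison, the library of CON sample 1 has to be described, because it stood apart from the other 5. Total counts were between 29370025 and 38007486 per sample, and CON sample 1 lay inside that range with 30708423. Its mitochondrially encoded genes took 5.37% of all counts, whereas CON samples 2 and 3 had 3.50% and 3.32%, and RA samples 1, 2 and 3 had 3.47%, 3.39% and 3.27%. The ratio of mitochondrially encoded to nuclear member counts was 8.41 in CON sample 1 and between 4.81 and 5.29 in the other 5 samples. Nuclear member counts made up 0.639% of the total there and between 0.657% and 0.693% elsewhere. Among the 11342 genes with a mean of at least 1 FPKM (counts scaled by gene length and by the total of the sample), 17.8% lay more than 0.5 on the log2 scale from the median of the other samples in CON sample 1, against 6.12% to 6.38% in each of the other 5. The calls and many of the values are therefore also given without this sample.

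Nuclear members differed little between RA and CON. Of 80 nuclear members that passed the filter on low counts, 0 rose and 2 fell at an adjusted p below 0.05 (edgeR's quasi-likelihood test, Benjamini-Hochberg over 13438 genes). That is 2.5% of them, against 9.82% of all genes tested, of which 5.31% rose and 4.5% fell. With a log2 fold change beyond 0.58 added to the call, 0 of the 80 were called, against 4.96% of all genes, or 7.57% where the p was left unadjusted. At an unadjusted p below 0.05 there were 9 (1 higher and 8 lower), or 11.2% of the 80, against 24% of all genes. The median log2 fold change of the 80 was −0.03, and that of all genes tested was −0.01. The values ran from −0.55 for Cox6b2 to 0.37 for Atp5f1d, and 73 of 80 lay within 0.25 of 0. The 95% interval of the log2 fold change lay wholly within −0.58 to 0.58 in 67 of 80 (83.8%), against 64.3% of all genes tested. This is the size of change the study used for its own lists. The nuclear members also had a smaller median SE, 0.0934 against 0.114 for all genes tested. They were more abundant, at a median of 65.8 FPKM against 3.17 for all genes in the files. These 2 shares are therefore not those of genes measured equally well. The FPKM values of RA and CON did not overlap in 15 of the 80 (18.8%), with RA higher in 5 and lower in 10, against 32.2% of all genes (18.9% higher and 13.3% lower).

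**Figure D1:**
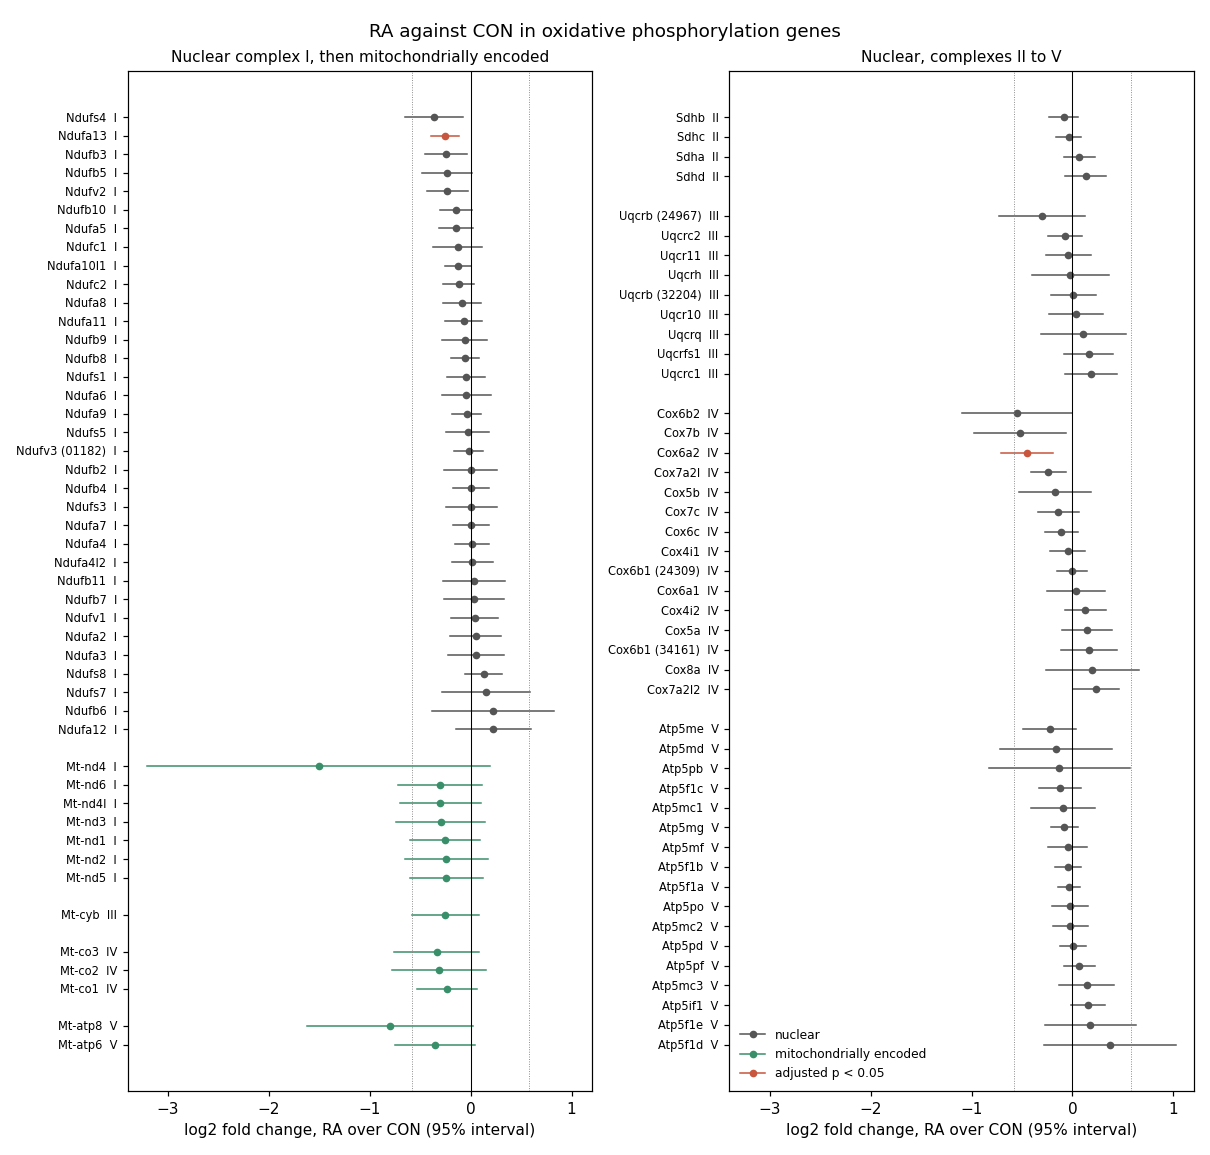
Log2 fold change of RA over CON (x axis) with its 95% interval for the nuclear and mitochondrially encoded members tested, apart from 1 nuclear gene not reported here, one line each, ordered by value within a complex (Roman numeral); dotted lines mark −0.58 and 0.58, and the last 5 digits of the identifier tell apart genes of one symbol. The red points are Ndufa13 at −0.25 and Cox6a2 at −0.45, and all 13 mitochondrially encoded genes lie left of 0 with intervals that reach past it.

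Complex I had the most nuclear members, 38 identifiers, of which 35 were tested. Of these, 1 fell and 0 rose, where 4.5% of all genes tested fell and 5.31% rose. The median log2 fold change was −0.03 (range −0.37 to 0.23). The member that fell was Ndufa13, an accessory subunit also known as GRIM-19. Its FPKM was 119, 112 and 116 in CON samples 1 to 3 and 97.3, 97.4 and 100 in RA samples 1 to 3. Every RA sample lay below every CON sample, and the log2 fold change was −0.25 ± 0.061 (SE, adjusted p = 0.0366). Without CON sample 1 it was −0.23 (adjusted p = 0.0122), but without any of the other 5 samples the call was lost, with adjusted p for Ndufa13 between 0.0774 and 0.155.

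In the core subunits of complex I described here no difference passed the test. Ndufv1, which binds NADH, had an FPKM of 52.4, 63.8 and 68.7 in CON and of 62.0, 64.3 and 65.4 in RA (log2 fold change 0.04, 95% interval −0.19 to 0.27). Ndufs1, the largest iron-sulfur subunit, had 50.8, 45.6 and 40.3 in CON and 45.5, 43.6 and 44.2 in RA (−0.05, −0.23 to 0.14). In both genes the groups overlapped and the intervals allowed changes of at most 0.27 on the log2 scale. The values without CON sample 1 were −0.07 and 0.04. The most abundant nuclear member of complex I per length was Ndufa11, an accessory membrane subunit, at 217 ± 15.4 FPKM in CON and 209 ± 13.4 in RA (mean ± SD, n = 3).

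A few other complex I genes lay lower in RA without passing the correction for multiple tests. They were picked with their values in view. Ndufs4, a subunit that joins late in assembly, had 9.50, 8.01 and 8.89 FPKM in CON and 6.09, 7.77 and 6.79 in RA (log2 fold change −0.37 ± 0.12, adjusted p = 0.119). Ndufv2, which sits beside Ndufv1 in the NADH module, had 80.3, 64.5 and 66.4 in CON and 61.4, 61.7 and 58.2 in RA (−0.23, adjusted p = 0.16). For Ndufb3, an accessory membrane subunit, the log2 fold change was −0.24 (adjusted p = 0.154). In all 3 the RA values lay below the CON values without overlap. The log2 fold changes of Ndufs4, Ndufv2 and Ndufb3 without CON sample 1 were −0.31, −0.13 and −0.15, with adjusted p between 0.116 and 0.159.

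Ndufa4 is named with complex I but since recognized as a subunit of complex IV. It had an FPKM of 50.9, 44.2 and 49.0 in CON and of 48.8, 47.8 and 49.6 in RA. Its paralog Ndufa4l2, which is induced by hypoxia in many cells, had 14.8, 15.6 and 15.8 in CON and 15.1, 15.5 and 16.4 in RA. Both log2 fold changes were 0.01, and without CON sample 1 they were 0.05 and −0.02. Ndufa4l2 made up 22.5% to 26.1% of the pair's FPKM in CON and 23.6% to 24.9% in RA, so that the groups overlapped.

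Complex II, the only complex with no mitochondrially encoded subunit, had 4 members, and 0 passed the test, against 9.82% of all genes tested. In so small a set a count of 0 says little. Sdha, the flavoprotein that oxidizes succinate, had 60.4, 68.9 and 66.5 FPKM in CON and 67.9, 69.2 and 70.3 in RA (log2 fold change 0.07, 95% interval −0.08 to 0.22). Sdhb, the iron-sulfur subunit, had 88.5, 81.7 and 82.9 in CON and 76.9, 80.7 and 82.8 in RA (−0.09, −0.23 to 0.06). The membrane anchor Sdhc was the most abundant per length, at 99.2 ± 1.93 in CON and 97.7 ± 1.86 in RA (mean ± SD, n = 3). The other anchor, Sdhd, had the largest log2 fold change of the complex, 0.13 (adjusted p = 0.412). It came down to 0.04 without CON sample 1, where Sdhd was at 64.4 FPKM against 79.1 to 82.8 in the other 5 samples.

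In complex III, 0 of 9 nuclear members passed the test, against 9.82% of all genes tested, which says little for so few genes. The median log2 fold change was 0.01. The Rieske iron-sulfur protein Uqcrfs1 had 76.5, 103 and 96.3 FPKM in CON and 103, 102 and 107 in RA (log2 fold change 0.16, 95% interval −0.08 to 0.40). The core protein Uqcrc1 had 60.8, 81.2 and 80.9 in CON and 81.2, 88.9 and 85.5 in RA (0.18, −0.08 to 0.45). In both genes CON sample 1 was the lowest of all 6 samples, and without it the values were 0.04 and 0.06. The largest distance from 0 was that of Uqcrb identifier ENSRNOG00000024967, a small subunit at the ubiquinone side, with a log2 fold change of −0.30 (adjusted p = 0.369) that became −0.07 without CON sample 1. The second Uqcrb identifier, ENSRNOG00000032204, had 0.01.

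Uqcrh, the hinge protein of complex III and its most abundant nuclear member per length, was the single member that passed the test without CON sample 1 in the direction opposite to its value with all samples. Its FPKM was 181, 113 and 118 in CON and 128, 146 and 134 in RA. CON sample 1 was the highest of the 6 samples, while CON samples 2 and 3 were the lowest. The log2 fold change was −0.02 with all samples (95% interval −0.40 to 0.36) and 0.22 without CON sample 1 (0.08 to 0.36, adjusted p = 0.0407).

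Complex IV had 15 nuclear members tested of 17, of which 1 fell and 0 rose (median log2 fold change −0.04). Of all genes tested, 4.5% fell and 5.31% rose. The member that fell was Cox6a2, the isoform of subunit VIa typical of heart and skeletal muscle. Its FPKM was 21.3, 18.6 and 20.1 in CON and 15.03, 13.98 and 15.3 in RA, with no overlap. The log2 fold change was −0.45 ± 0.11 (SE, adjusted p = 0.0405). Without CON sample 1 it was −0.41 (adjusted p = 0.0405), and without any of the other 5 samples the call was lost (adjusted p for Cox6a2 between 0.0737 and 0.16). Its widespread counterpart Cox6a1 had 310, 435 and 433 FPKM in CON and 391, 421 and 408 in RA (log2 fold change 0.04, −0.25 to 0.33; −0.11 without CON sample 1). The share of Cox6a2 in the FPKM of the pair was 6.42%, 4.11% and 4.44% in CON and 3.70%, 3.21% and 3.62% in RA.

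Markers of skeletal muscle, another cell type that a cartilage preparation can hold, were low in all samples. The 2 that were tested moved in opposite directions, where 4.5% of all genes tested fell and 5.31% rose. The summed FPKM of the 9 muscle genes in the files was 4.12 to 5.65 in CON and 2.59 to 4.03 in RA, most of it from Tnnt3, a fast muscle troponin, which fell (log2 fold change −1.0, adjusted p = 0.0214). Mb, Ckm, Myh3 and Myh4, which define differentiated muscle, were each at or below 0.135 FPKM in every sample. The other muscle gene tested, Myod1, rose (1.93, adjusted p = 0.0142) from at most 0.117 FPKM in CON to between 0.282 and 0.432 in RA. Their part in the value of Cox6a2 was not tested. In bulk RNA, fewer cells of a type and less RNA per cell cannot be told apart.

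The other isoform pairs of complex IV showed no change that passed the test. Cox4i1, the usual isoform of subunit IV, had 362, 417 and 414 FPKM in CON and 373, 411 and 384 in RA (log2 fold change −0.04, 95% interval −0.22 to 0.13). Cox4i2, the isoform linked to low oxygen and to lung, had 28.3, 32.4 and 34.3 in CON and 34.2, 34.1 and 36.5 in RA (0.13, −0.07 to 0.33). Leaving out CON sample 1 gave −0.11 for Cox4i1 and 0.05 for Cox4i2. The share of Cox4i2 in the FPKM of the pair was 7.25%, 7.21% and 7.66% in CON and 8.40%, 7.67% and 8.70% in RA. The RA shares were all above the CON shares, by 0.882 percentage points on average. The lowest RA value was only just above the highest CON value, and the shares were not tested.

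Cox6b2, an isoform known from testis, was scarce, at 2.84, 2.54 and 2.85 FPKM in CON and 1.72, 1.74 and 2.20 in RA. Its log2 fold change of −0.55 ± 0.24 was the lowest of the nuclear members but did not pass the correction (adjusted p = 0.202), and it was −0.53 without CON sample 1. The main Cox6b1 identifier, ENSRNOG00000024309, was at 143 ± 8.71 in CON and 144 ± 4.14 in RA (mean ± SD, n = 3), and the second, ENSRNOG00000034161, at 28.5 ± 2.64 and 32.1 ± 2.39. Of the FPKM summed over Cox6b2 and both Cox6b1 identifiers, Cox6b2 was 1.48% to 1.73% in CON and 0.962% to 1.25% in RA. Cox7b had 41.3, 29.3 and 25.9 in CON and 28.2, 20.2 and 19.5 in RA (log2 fold change −0.52, adjusted p = 0.162), with CON and RA samples overlapping, and its value was −0.30 without CON sample 1. Cox8a, the widespread isoform of subunit VIII, had 85.3, 154 and 156 in CON and 149, 157 and 152 in RA (0.20, adjusted p = 0.599; −0.04 without CON sample 1). The muscle isoform Cox7a1 was listed at 0 in all 6 samples, and Cox8b was above 0 in RA sample 3 alone.

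Cox7a2l and Cox7a2l2 were picked with their values in view. Cox7a2l, known as a factor that joins complexes III and IV into supercomplexes, had 126, 112 and 106 FPKM in CON and 94.4, 101 and 98.4 in RA, without overlap. Its log2 fold change was −0.24 (adjusted p = 0.0899), and without CON sample 1 it was −0.17 and passed the test (adjusted p = 0.0465). The related gene Cox7a2l2 had 25.3, 27.3 and 27.8 in CON and 29.1, 32.3 and 33.9 in RA (0.23, adjusted p = 0.203, and 0.19 without CON sample 1). It was the single nuclear member that lay higher in RA at an unadjusted p below 0.05, and reads of these close relatives may have been divided between them in a way that is not stated.

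In complex V, 0 of 17 members passed the test (median log2 fold change −0.03), against 9.82% of all genes tested. The catalytic beta subunit Atp5f1b was the most abundant nuclear member of all per length, at 488, 526 and 526 FPKM in CON and 490, 512 and 505 in RA (log2 fold change −0.04, 95% interval −0.17 to 0.08). The alpha subunit Atp5f1a had 299, 307 and 305 in CON and 298, 298 and 303 in RA (−0.03, −0.14 to 0.08), which was the narrowest interval of the nuclear members. The values of Atp5f1b and Atp5f1a without CON sample 1 were −0.08 and −0.05. The intervals with all samples lay well inside the size of change the study used. Atp5if1, the inhibitor that binds the synthase when the membrane potential falls, had 165, 195 and 185 in CON and 204, 199 and 208 in RA (0.15, adjusted p = 0.26; 0.08 without CON sample 1). It too was picked with its values in view.

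The 3 genes for the c subunit, which make the same mature protein of the rotor ring, were present at unlike levels. Atp5mc2 gave 44.8% to 51.8% of their summed FPKM in CON and 45.6% to 47.3% in RA. Atp5mc3 gave 25.1%, 27.6% and 27.4% in CON and 30.7%, 28.9% and 28.7% in RA, with all RA samples above all CON samples. These shares were not tested, and the FPKM of Atp5mc3 itself overlapped between groups. Of all genes tested, 32.2% had no overlap in FPKM. Atp5mc1 had 92.2, 135 and 131 FPKM in CON and 106, 120 and 113 in RA. Its log2 fold change was −0.09 with all samples (adjusted p = 0.731) and −0.25 without CON sample 1 (adjusted p = 0.016). The log2 fold changes of Atp5mc2 and Atp5mc3 were −0.02 and 0.14 with all samples, and −0.07 and 0.01 without CON sample 1. Atp5f1d, the delta subunit of the central stalk, had the highest log2 fold change of the nuclear members, 0.37 (adjusted p = 0.466). This value rested on CON sample 1, at 22.0 FPKM against 51.9 to 59.2 in the other 5 samples, and was 0.06 without it.

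**Figure D2:**
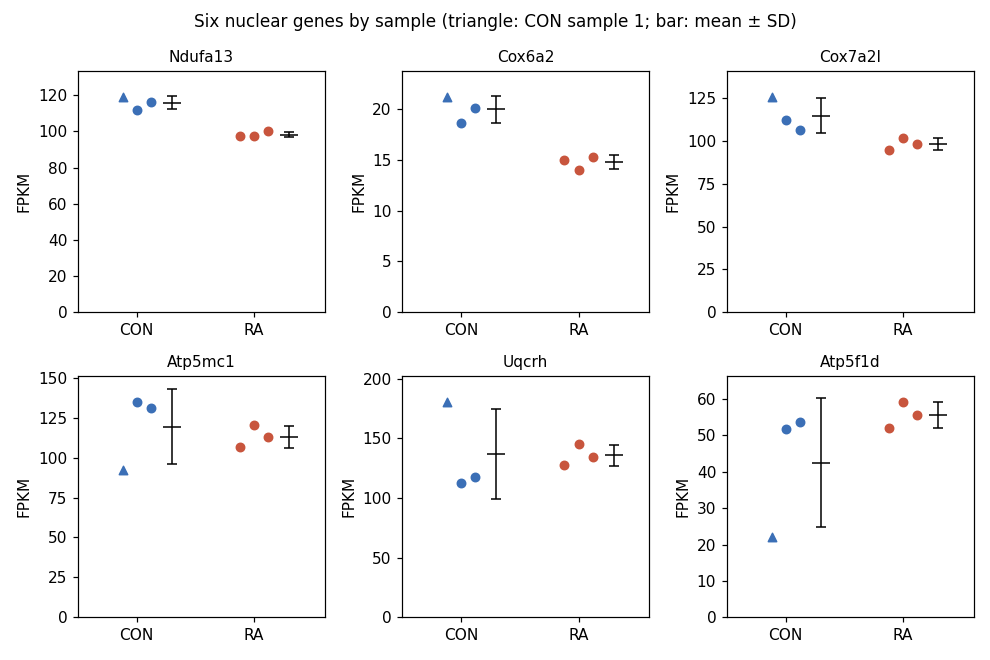
FPKM (y axis, from 0) of 6 nuclear genes in the 3 CON samples (blue, triangle for sample 1) and the 3 RA samples (red), with the mean and SD of each group beside them. Ndufa13, Cox6a2 and Cox7a2l show no overlap between groups, whereas in Atp5mc1, Uqcrh and Atp5f1d CON sample 1 (92.2, 181 and 22.0) lies on the far side of all other samples.

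Without CON sample 1, 5 of 81 nuclear members passed the test (6.17%, against 16.5% of all genes), and their median log2 fold change was −0.06, that of all genes being near 0. Ndufa13, Cox6a2, Cox7a2l and Atp5mc1 fell, where 7.8% of all genes fell, and Uqcrh rose, where 8.65% rose. Without CON sample 2 or 3 or RA sample 1, 2 or 3 in turn, 0 nuclear members passed, against 5.3%, 9.67%, 5.08%, 4.99% and 4.83% of all genes. In CON sample 1, 10 of the 80 nuclear members (12.5%) were more than 0.5 on the log2 scale from the median of the other samples. Below it were Atp5f1d (−1.31), Ndufb6 (−1.14), Cox8a (−0.85), Atp5f1e (−0.80), Ndufs7 (−0.78) and Uqcrq (−0.72). Above it were Cox7b (0.65), Atp5md (0.64), Uqcrb ENSRNOG00000024967 (0.64) and Uqcrh (0.51). The log2 fold changes of Ndufb6, Ndufs7, Uqcrq, Atp5f1e and Atp5md were 0.22, 0.15, 0.11, 0.18 and −0.16 with all samples. Without CON sample 1 they were −0.07, −0.07, −0.11, −0.04 and 0.06, and none was called in either fit. The low and the high genes both came from several complexes, and each other sample had at most 2 of the 80 at that distance.

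Ndufa1, Ndufs6 and the second Ndufv3 identifier were listed at up to 1.13 FPKM and, with Cox7a1 and Cox8b, were left untested. Ndufa1, for example, was at 0.124 to 0.611 FPKM although it is a subunit of every complex I. Atp5pb, the stator subunit b of complex V, was tested but at 0.257 to 0.446 FPKM in all samples. The other nuclear members of the complex lay between 9.55 FPKM (Atp5md) and 526 FPKM. How reads shared by gene copies were assigned is not given in the sources used here, and levels of genes with near-identical copies are uncertain for that reason.

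The 13 mitochondrially encoded genes together made up most of the member counts, at 89.4% of member counts in CON sample 1 and 82.8% to 84.1% in the other 5 samples. The highest per length were the complex IV genes. Mt-co1, the catalytic subunit of cytochrome oxidase, had 9995, 7000 and 6751 FPKM in CON and 6813, 6824 and 6724 in RA. Mt-co3 had 10478, 6398 and 5947 in CON and 6410, 5950 and 5861 in RA. Mt-co2, which receives electrons from cytochrome c, had 9122, 5498 and 4812 in CON and 5668, 5123 and 4927 in RA. In these and the other 10 genes CON sample 1 was the highest sample, and without it the CON and RA values lay close together in all but Mt-nd4.

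**Figure D3:**
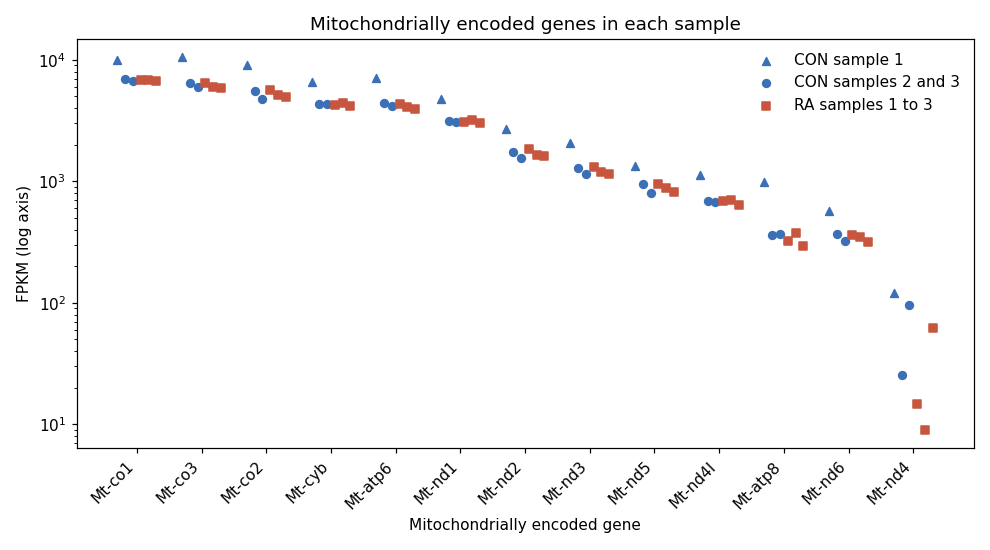
FPKM (log axis) of the 13 mitochondrially encoded genes in each sample, ordered by their mean, with CON sample 1 as blue triangles, CON samples 2 and 3 as blue circles and RA samples as red squares. The triangle is the highest point for every gene, and Mt-nd4 is the gene whose other 5 samples are spread, from 9.04 to 95.5.

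With all samples, 0 of the 13 passed the test with edgeR, against 9.82% of all genes, and 0 had an unadjusted p below 0.05, against 24%. This last count depended on the fit. It was 4 without CON sample 2, 12 without CON sample 3, 1 without RA sample 3 and 3 with no filter on low counts. All these fits kept CON sample 1. Each called 0 of the 13 at the adjusted threshold, against 5.3%, 9.67%, 4.83% and 7.12% of all genes in that order. With replicate number as a block, 6 had such an unadjusted p and 1 (Mt-nd4) passed, where 11.9% of all genes passed. DESeq2 called 0 of the 13, against 12.9% of all genes, and gave 1 at an unadjusted p below 0.05. The share of all genes at the unadjusted p is not given for these fits. The log2 fold change lay below 0 in 13 of 13, with a median of −0.30 and a range from −1.51 to −0.23. The intervals were wide, since the median SE was 0.181 against 0.0934 for the nuclear members, and 1 of the 13 intervals lay within −0.58 to 0.58. Without CON sample 1 the median became −0.03, the median SE 0.0554, 12 of 13 intervals lay within −0.58 to 0.58, and again 0 passed the test, against 16.5% of all genes. The mitochondrially encoded share of counts was 4.06% ± 1.14 in CON and 3.38% ± 0.0995 in RA (mean ± SD, n = 3), a difference of −0.687 percentage points that became −0.0329 without CON sample 1. That the share was lower in RA therefore rested on a single CON library.

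By complex, the 7 genes of complex I had a median log2 fold change of −0.30 with all samples and −0.02 without CON sample 1. Mt-nd1, in the membrane arm at the ubiquinone site, had 4795, 3125 and 3076 FPKM in CON and 3065, 3188 and 3020 in RA (log2 fold change −0.26, 95% interval −0.61 to 0.09). Its interval without CON sample 1 was −0.09 to 0.05. The antiporter-like subunits Mt-nd2 and Mt-nd5 had −0.24 each with all samples, and 0.04 and −0.01 without CON sample 1. For Mt-nd3 the pair of values was −0.30 and 0.00, and for Mt-nd4l −0.30 and −0.03. Mt-nd6, the only protein gene on the light strand of mitochondrial DNA, had 571, 366 and 326 FPKM in CON and 364, 346 and 318 in RA, and its values of −0.31 and −0.03 were close to those of the genes on the other strand.

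Mt-cyb, the cytochrome b of complex III, had 6544, 4323 and 4334 FPKM in CON and 4230, 4455 and 4174 in RA. Its log2 fold change was −0.25 with all samples and −0.03 without CON sample 1 (95% interval −0.10 to 0.04). In complex IV, Mt-co1, Mt-co2 and Mt-co3 had −0.23, −0.32 and −0.34 with all samples, and −0.03, 0.01 and −0.04 without CON sample 1. The interval of Mt-co1 without that sample, −0.08 to 0.01, was the narrowest of the 13. In complex V, Mt-atp6, the proton channel subunit, had 7039, 4454 and 4154 FPKM in CON and 4318, 4079 and 3945 in RA (−0.35, and −0.08 without CON sample 1).

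Mt-atp8 and Mt-nd4 differed from the other 11 genes. Mt-atp8, a small subunit whose gene overlaps Mt-atp6, had 990, 359 and 367 FPKM in CON and 324, 374 and 293 in RA (log2 fold change −0.80, and −0.15 without CON sample 1). In CON sample 1 it was 2.88 times the mean of the other 5 samples, whereas the ratio lay between 1.47 and 1.75 for the 11 genes other than Mt-atp8 and Mt-nd4. Mt-nd4, a proton-pumping subunit whose gene overlaps Mt-nd4l, had 121, 25.4 and 95.5 FPKM in CON and 14.7, 9.04 and 62.0 in RA. Leaving out CON sample 1, its highest sample was 10.6 times its lowest, against 1.04 to 1.28 times for the other 12 genes. High and low samples occurred in both groups, so that its log2 fold change of −1.51 had a 95% interval of −3.21 to 0.19, and it was −1.11 (−2.52 to 0.30) without CON sample 1. In the same samples Mt-nd4l, which is carried on one transcript with Mt-nd4, was at 639 to 709 FPKM outside CON sample 1. How reads in overlapping genes were counted is not given in the sources used here.

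**Figure D4:**
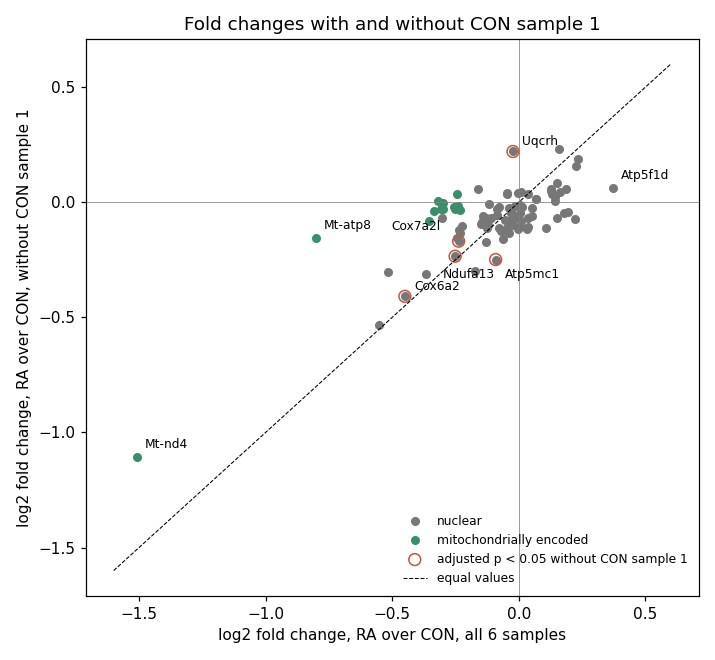
Log2 fold change of RA over CON with all 6 samples (x axis) against the value without CON sample 1 (y axis) for each nuclear (grey) and mitochondrially encoded (green) gene tested with all 6 samples; the dashed line marks equal values and rings mark adjusted p below 0.05 without that sample. Apart from Mt-nd4 and Mt-atp8 the green points move from between −0.35 and −0.23 to between −0.08 and 0.04, whereas Ndufa13 and Cox6a2 stay near the line.

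The genes around the respiratory chain were followed in lists chosen by function. Of 46 assembly factors 0 passed the test (median log2 fold change −0.01), and of 21 electron carriers and enzymes that feed the chain 0 passed (−0.02), Cyc1, the cytochrome c1 of complex III and named for that role, included at 0.20 (adjusted p = 0.198; 0.11 without CON sample 1). Of 18 genes of the tricarboxylic acid cycle 0 passed (−0.01), and the same held for 76 mitochondrial ribosomal proteins (−0.03), for 14 carriers and pores of the mitochondrial membranes (0.04) and for 12 hypoxia and pyruvate dehydrogenase kinase genes (0.02). At an unadjusted p below 0.05 these 6 lists had 3, 4, 2, 4, 3 and 4 genes, in the order given. These counts stand against 9.82% of all genes called and 24% at the unadjusted p. Without CON sample 1, where 16.5% of all genes were called, some members of 5 of these 6 lists passed the test, which were picked with their values in view. Coa3, an assembly factor of complex IV, rose (log2 fold change 0.32, adjusted p = 0.00567), and so did the dicarboxylate carrier Slc25a10 (0.22, adjusted p = 0.0373, against 0.40 and adjusted p = 0.164 with all samples) and the mitochondrial ribosomal gene Mrps17 (0.32, adjusted p = 0.00411). Idh2, the NADP-dependent isocitrate dehydrogenase of mitochondria, fell (−0.25, adjusted p = 0.00467). Of the hypoxia and kinase list, Bnip3l (0.22) and Vegfa (0.26) rose and Pdk3 (−0.25) fell. The electron carrier list had 0 calls there, against the same 16.5%.

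Among 26 genes that express mitochondrial DNA, 1 fell and 0 rose (median −0.07), where 4.5% of all genes fell and 5.31% rose. It was Tfb1m, a methyltransferase that acts on the RNA of the small mitochondrial ribosomal subunit, with 12.9, 11.3 and 9.86 FPKM in CON and 8.82, 7.54 and 8.52 in RA (log2 fold change −0.46, adjusted p = 0.0416; −0.36 and adjusted p = 0.0283 without CON sample 1), a call that held in 2 of 6 fits that left out a sample. Among 14 regulators of mitochondrial biogenesis, 1 fell and 0 rose (median −0.02). It was the nuclear receptor Esrrg, which was scarce, with 0.196, 0.137 and 0.133 FPKM in CON and 0.0822, 0.0383 and 0.0303 in RA (−1.63, adjusted p = 0.0463; adjusted p = 0.0693 without CON sample 1), a call that held in 1 of those 6 fits. The calls of this list were others without CON sample 1, since 0 fell and 2 rose, the corepressor Nrip1 (0.30, adjusted p = 0.019) and the nuclear receptor Esrra (0.22, adjusted p = 0.0499, against 0.44 and adjusted p = 0.203 with all samples). Of all genes 4.5% fell with all samples, and 8.65% rose without CON sample 1. Ppargc1a and Nrf1 are named here for their known roles. The coactivator Ppargc1a was at 0.25, 0.266 and 0.308 FPKM in CON and 0.345, 0.124 and 0.189 in RA (adjusted p = 0.633). Nrf1, which encodes NRF-1, had 10.4, 11.6 and 11.3 in CON and 12.1, 12.7 and 11.1 in RA (log2 fold change 0.10, adjusted p = 0.489).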

How the data were processed

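The authors sequenced poly(A) RNA, and the submitters' processing notes name HISAT2, HTSeq 0.13.5 and the build Rnor_6.0. The deposited counts are whole numbers of reads per gene, without normalization, and the deposited FPKM values scale each count by gene length and by the sample's own total. Annotation release, strand setting and the handling of shared reads are not given in the sources used here. Samples were grouped by their labels. Counts were tested with edgeR 4.0.16 in R 4.3.3 (quasi-likelihood, TMM, filterByExpr with a minimum count of 10, no covariates, all 6 samples), and calls had a Benjamini-Hochberg adjusted p below 0.05. Alternatives used DESeq2 1.42.0, limma 3.58.1 on log2 FPKM with pseudocounts of 0.1 and 1, other scalings, filters and call rules, and samples left out. The script was tested on simulated data. A count of 0 allows up to 3 counts, or 0.0789 to 0.102 CPM, for counting error only.

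Members and lists were chosen with earlier results of these data known. Named were every mitochondrially encoded member, nuclear members past the threshold (otherwise the member of a complex with the largest change), isoform pairs, core subunits, the most abundant nuclear member of each complex, and up to 3 genes past the threshold per list; other genes were picked with their values in view. Promoters came from RefSeq (GRCr8) and carry that build's coordinates. Values of 1 gene of the named core are not reported here.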

Additional observations from a re-analysis of the deposited data

How the results depend on the processing

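Over 14 refits, the count of nuclear members called stayed at 2 under DESeq2 size factors, library totals, library sizes without mitochondrially encoded genes, DESeq2, both limma fits and the replicate block. It was 0 with no filter on low counts (adjusted p 0.0523 for Ndufa13 and 0.0598 for Cox6a2), where 84 were tested, and 0 when a log2 fold change beyond 0.58 was added to the adjusted or the unadjusted p. Leaving out one sample at a time gave 0 to 5 nuclear members, 0 mitochondrially encoded genes and 0 to 22 genes of the pathway lists, with 5 and 22 reached without CON sample 1, where 16.5% of all genes were called. Of those 22, 12 were cytosolic ribosomal protein genes, which were counted with the pathway lists here. Uqcrh ranged from −0.15 to 0.22 in log2 fold change over those fits and reversed sign as a call only without CON sample 1. The median of the mitochondrially encoded genes ranged from −0.45 to −0.03. As a share of member counts alone, the mitochondrially encoded difference was −1.83 percentage points, and 0.251 without CON sample 1. A further 70 of 1300 member values, none called, changed sign. The labels do not say whether replicate numbers pair the samples. Correlations of deviations were 0.145, −0.0563 and 0.0261 for samples of the same number, and −0.182 to 0.156 for the others. With 3 samples a group these values cannot decide on pairing. With the replicate block, which called 11.9% of all genes against 9.82% without it, 1 mitochondrially encoded gene (Mt-nd4, −1.69) passed. In that fit 6 mitochondrially encoded genes had an unadjusted p below 0.05, a share not given for all genes. Among the nuclear calls Cox7b replaced Cox6a2, and Ndufa13 remained. For the changed counts, the cause was not tested. With 3 samples a group, changes smaller than the intervals given could not be resolved.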

Other observations

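Nuclear genes of the mitochondrial and cytosolic ribosomes offer a view of CON sample 1 beside the respiratory subunits. In that sample 6 of the 76 mitochondrial ribosomal protein genes (7.89%), 0 of the 18 genes of the tricarboxylic acid cycle and 7 of the 46 assembly factors (15.2%) lay more than 0.5 on the log2 scale from the median of the other samples, against 12.5% of the nuclear respiratory members and 17.8% of all genes with a mean of at least 1 FPKM. Among 86 cytosolic ribosomal protein genes it was 20.9%, with 12 above and 6 below.

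The 86 cytosolic ribosomal protein genes had a median log2 fold change of −0.14 with RA and 30 with an unadjusted p below 0.05 (24% of all genes had one), while 0 passed the adjusted threshold with edgeR. Without CON sample 1, 12 of the 86 fell and 0 rose, where 7.8% of all genes fell, and the median was −0.11. With all samples 9.82% of all genes were called, 5.31% higher and 4.5% lower. Beside these shares, of the markers of other cell types, 0 of 4 macrophage genes and 0 of 2 endothelial genes tested passed, and among 6 fibroblast and perichondrium genes 1 rose (Pdgfra, 0.44) and 2 fell (Dcn, −0.41, and Postn, −1.28). The 1 erythroid gene in the files was at most 0.019 FPKM in every sample. Of the histone genes, whose main RNAs lack a poly(A) tail, 0 of 12 tested passed, and their summed FPKM was 595 in CON sample 1 and 701 to 757 in the other 5.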
